A study of Mus musculus with 15 samples.

Results

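NADPH oxidases are membrane enzymes whose main known product is superoxide or hydrogen peroxide, and 6 of their subunit genes are described here in mouse heart: Cybb, Nox4, Cyba, Ncf1, Ncf4 and Rac2. They were taken by gene symbol, 6 of 36653 gene identifiers in the table, and each symbol matched 1 row. All 6 passed the filter on low values (a mean of at least 0.5 FPKM over the libraries), as did 13121 genes in all. The series holds 15 libraries of poly(A)-selected ventricular RNA from wild-type C57BL/6 mice aged 10 weeks, 5 in each of 3 groups. The vehicle mice (Veh_H) received saline. The AngII mice (A_H) had an implanted pump under the skin that delivered 1000 ng/kg/min of angiotensin II, the vasoconstrictor peptide of the renin-angiotensin system. In the group called AngII plus OA (A_OA_H) the mice had this pump and were given OA, which the study's title gives as oleic acid, at a dose of 160 mg/kg in 0.3 mL per mouse each day. Its subject, by the same title, is whether the fatty acid protects against cardiac remodelling. The labels do not say how long the pumps ran, how the oleic acid was given, or whether the other mice received its carrier.

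The phagocyte oxidase is a complex of 2 membrane proteins and several cytosolic ones. Cybb (gp91phox or Nox2) is the catalytic chain, which passes electrons from NADPH across the membrane to oxygen, and Cyba (p22phox) is the small partner that stabilises it. On activation the organizer Ncf1 (p47phox), its companion Ncf4 (p40phox) and a Rac GTPase, in blood cells mostly Rac2, join them. Nox4 is a second catalytic chain, which also pairs with Cyba but is active without the cytosolic subunits, and is known from cardiac muscle cells, endothelium and fibroblasts. Angiotensin II is a classical stimulus of these enzymes in the vessel wall and the heart.

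Values are FPKM, fragments scaled to gene length and to a library's total, so they can be compared between genes. The library totals behind them, recovered from the steps between low values, were 24.5 to 28.3 M fragments. Mitochondrially encoded genes took 44.6% to 50.02% of the FPKM of a vehicle library, 34.5% to 48.3% of an AngII library and 38.6% to 47.0% of an AngII plus OA library, so the share moved with the groups. With FPKM rescaled without these genes, the median log2 change of the 6 subunit genes in AngII against vehicle was 0.39, in place of 0.45, and that of all tested genes 0.01, in place of 0.07. AngII replicate 2 stood apart from all other libraries on principal component 1 (66.1, against -17.2 to 8.98). It also held the most transcript of atrial markers (summed level 3046 FPKM, against at most 750.4 elsewhere), of adipocyte markers (282.9 FPKM, against at most 83.5) and of mesothelial markers (79.5 FPKM, against at most 14.1), and the least of ventricular cardiomyocyte markers. The ventricular myosin light chains Myl2 and Myl3 were abundant in all libraries, at 2555 to 7777 and 1219 to 3338 FPKM. The summed level of all 8 ventricular cardiomyocyte markers was 15868 to 35054 FPKM, but most of the 8 are not confined to the ventricle.

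Cyba was by far the most abundant of the 6 transcripts, with a mean of 31.7 FPKM over the 15 libraries. Ncf1 (2.19 FPKM), Ncf4 (2.18), Rac2 (2.12) and Cybb (1.83) lay close together, and their ranges over the libraries overlapped. Nox4 was lowest on average (1.19 FPKM) and by far the most variable. Its highest library held 16.0 times the level of its lowest, against 2.13 to 3.41 times for the other 5 genes. The reads behind the values were few for most of them: 58 to 200 per library for Ncf4, 90 to 266 for Rac2, 105 to 398 for Ncf1, 159 to 467 for Cybb, 71 to 1195 for Nox4 and 590 to 1149 for Cyba. Counting error alone gave a coefficient of variation of at most 13.1% (Ncf4 in its shallowest library), below the 18.7% to 25.6% seen for Ncf4 between replicates.

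**Figure D1:**
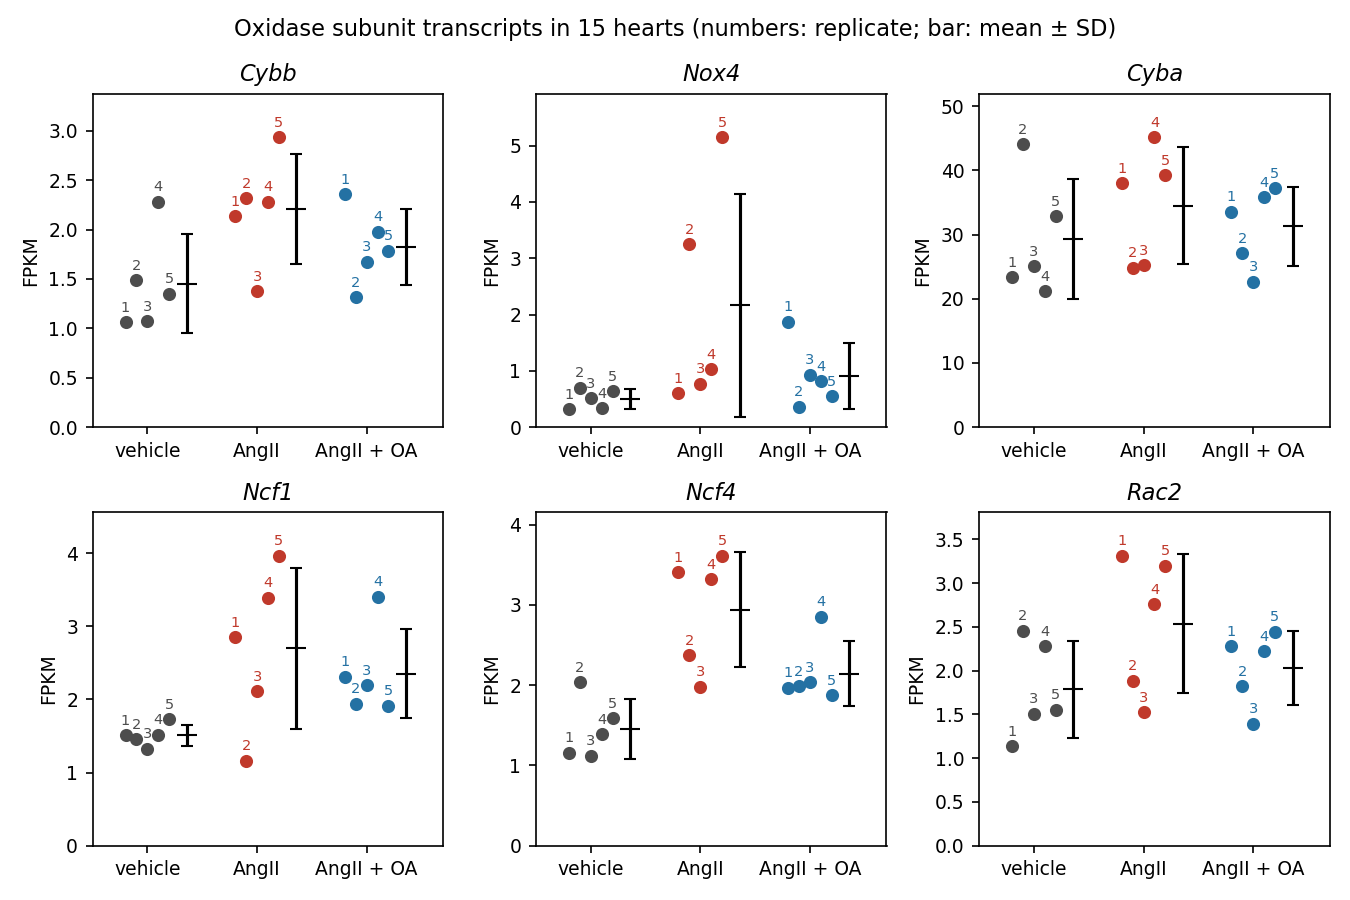
FPKM of the 6 oxidase subunit genes (vertical axes, each from 0) in vehicle, AngII and AngII plus OA hearts; each numbered point is 1 library and the bar beside it is the group's mean ± SD (n = 5). AngII values of Ncf4 lie mostly above the vehicle values, and Nox4 is high in AngII replicates 5 and 2.

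Sequence just upstream of the annotated starts is shown for the 4 genes that have an entry in the RefSeq promoter table (build GRCm38.p6), because the catalytic chains and their partner differ in base composition there. Ncf4 and Rac2 have no entry. Capitals mark matches to the GC box, GGGCGG, searched on both strands, which read CCGCCC when the match lies on the other strand. These are positions of the RefSeq build and were not used to make the expression values.
Cybb, chrX:9469325-9469424, minus strand: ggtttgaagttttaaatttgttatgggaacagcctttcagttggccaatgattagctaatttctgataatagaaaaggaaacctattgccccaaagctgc
Nox4, chr7:87246549-87246648, plus strand: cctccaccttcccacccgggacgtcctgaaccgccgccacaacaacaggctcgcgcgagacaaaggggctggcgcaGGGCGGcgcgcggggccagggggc
Cyba, chr8:122432941-122433040, minus strand: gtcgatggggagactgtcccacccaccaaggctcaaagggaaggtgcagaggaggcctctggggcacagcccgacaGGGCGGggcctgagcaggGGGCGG
Ncf1, chr5:134229626-134229725, minus strand: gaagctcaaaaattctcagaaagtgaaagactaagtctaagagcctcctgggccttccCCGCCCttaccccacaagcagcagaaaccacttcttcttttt

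The 100 bases before the start were 37.0% G and C in Cybb, 47.0% in Ncf1, 70.0% in Cyba and 75.0% in Nox4, against a median of 55.0% over all 32851 windows of the table. Cyba had 2 GC boxes, Ncf1 and Nox4 had 1 each and Cybb had 0. Of all windows of that length, 24.7% held at least 1. The hexamer GAGGAA, a core sequence bound by the myeloid transcription factor PU.1 (gene Spi1), was searched on both strands in the full 300-base windows and occurred in 28.3% of them. Of the 4 genes only Cybb had it, from base 10 after the start, on the other strand, where it reads TTCCTC, in 24 bases at chrX:9469301-9469324, minus strand.
Cybb, bases after the start: tgttttcatTTCCTCatcagaaga
In the 50 bases after the start, 6.02% of all windows held this hexamer. Neither motif overlapped the other.

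The first comparison, AngII against vehicle, asks what angiotensin II changed. All 6 subunit genes had a higher mean in AngII hearts, as did 65.7% of all tested genes. Ncf4 rose 2.01-fold and was the 1 of the 6 that passed the test (limma, adjusted p under 0.05 over all tested genes), beside 1.27% of all tested genes called higher. The median log2 change was 0.45 for the 6 genes and 0.07 for all tested genes. Before adjustment 4 of the 6 had a limma p under 0.05 in the direction of a rise, against 13.3% of all tested genes. The groups overlapped for all 6, and did not for 3.8% of all tested genes. For a whole ventricle these values cannot tell more cells of a type from more RNA per cell.

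Cybb (ENSMUSG00000015340), the catalytic chain of phagocytes, stood at 1.06, 1.49, 1.07, 2.28 and 1.35 FPKM in vehicle replicates 1 to 5. Its AngII values were 2.14, 2.32, 1.38, 2.28 and 2.94 FPKM. Vehicle replicate 4 lay among the AngII values and AngII replicate 3 among the vehicle values, so the groups overlapped. The means were 2.21 ± 0.558 and 1.45 ± 0.499 FPKM (SD, n = 5 each), a log2 change of 0.39 (SE 0.15, limma adjusted p = 0.198; exact permutation p = 0.0714). The call was not made, and the 95% interval of the change ran from 0.07 to 0.71.

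Nox4 (ENSMUSG00000030562), the catalytic chain that needs no cytosolic partner, was at 0.321, 0.702, 0.512, 0.339 and 0.639 FPKM in the vehicle libraries. In the AngII libraries it was at 0.603, 3.25, 0.773, 1.03 and 5.15 FPKM. AngII replicates 5 and 2 were far above every vehicle library, and replicate 2 was the library that stood apart. Replicates 3 and 4 were slightly above all vehicle libraries, and replicate 1 lay inside the vehicle range. The mean was 4.30 times as high (2.16 ± 1.99 against 0.503 ± 0.172 FPKM), and the log2 change was 0.87 (SE 0.32, limma adjusted p = 0.177; exact permutation p = 0.0238). Because Nox4 was low, the pseudocount weighed on the size: with 0.1 in place of 1 the log2 change was 1.5 (adjusted p = 0.153). Without AngII replicate 5 it was 0.57 (adjusted p = 0.316). With any 1 of the 10 libraries left out it stayed between 0.57 and 1.06, and 0 of these 10 fits called it.

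Cyba (ENSMUSG00000006519), the shared membrane partner, ranged from 21.2 to 44.0 FPKM in vehicle hearts (median 25.1) and from 24.9 to 45.2 in AngII hearts (median 38.0). The ranges covered each other almost fully. Vehicle replicate 2, the highest of its group, was higher than 4 of the 5 AngII libraries. The means were 34.5 ± 9.07 and 29.3 ± 9.35 FPKM, with a log2 change of 0.24 (SE 0.22, limma adjusted p = 0.620) and a 95% interval from -0.22 to 0.70. It was 0.39 without vehicle replicate 2, 0.14 without vehicle replicate 4 and 0.13 without AngII replicate 4, and 0.08 after quantile normalization.

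Ncf1 (ENSMUSG00000015950), the organizer of the cytosolic complex, was nearly uniform in vehicle hearts: 1.51, 1.46, 1.32, 1.52 and 1.73 FPKM. The AngII values were 2.85, 1.16, 2.11, 3.39 and 3.97 FPKM. Of these, 4 lay above the whole vehicle range, while AngII replicate 2, the library that stood apart, lay below it. The log2 change was 0.50 (SE 0.18, limma adjusted p = 0.174; exact permutation p = 0.0635). Without AngII replicate 2 it was 0.68 and passed (adjusted p = 0.0247). Part of the Ncf1 exons, 11.1% of their bases, is shared with Gtf2ird2 on the opposite strand (mean 1.11 FPKM), and no strand setting is given, so reads there cannot be told apart.

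Ncf4 (ENSMUSG00000071715), which binds phosphoinositides of the phagosome membrane, was at 1.16, 2.03, 1.12, 1.39 and 1.59 FPKM in vehicle hearts. AngII hearts held 3.41, 2.37, 1.98, 3.32 and 3.61 FPKM. Only AngII replicate 3 fell under the highest vehicle library, replicate 2. Ncf4 rose from 1.46 ± 0.374 to 2.94 ± 0.718 FPKM (SD, n = 5 each), a log2 change of 0.67 (SE 0.14, limma adjusted p = 0.0294; exact permutation p = 0.0159). The call was close to the threshold. It was lost without AngII replicate 1 (0.0752), 4 (0.0724) or 5 (0.0827), and without vehicle replicate 1 (0.0557), 3 (0.0600), 4 (0.0675) or 5 (0.0638). With any 1 of the 10 libraries left out, the log2 change stayed between 0.61 and 0.77.

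Rac2 (ENSMUSG00000033220), the Rac GTPase of blood cells, was at 1.14, 2.45, 1.51, 2.28 and 1.55 FPKM in vehicle and 3.31, 1.89, 1.53, 2.76 and 3.20 FPKM in AngII libraries. AngII replicates 1, 4 and 5 were above all vehicle libraries and replicates 2 and 3 were inside the vehicle range. The log2 change was 0.34 (SE 0.17, limma adjusted p = 0.338; exact permutation p = 0.143). Rac2 is close in coding sequence to the ubiquitous Rac1, which was 24.5 FPKM on average, and how reads shared by such relatives were counted is not given.

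**Figure D2:**
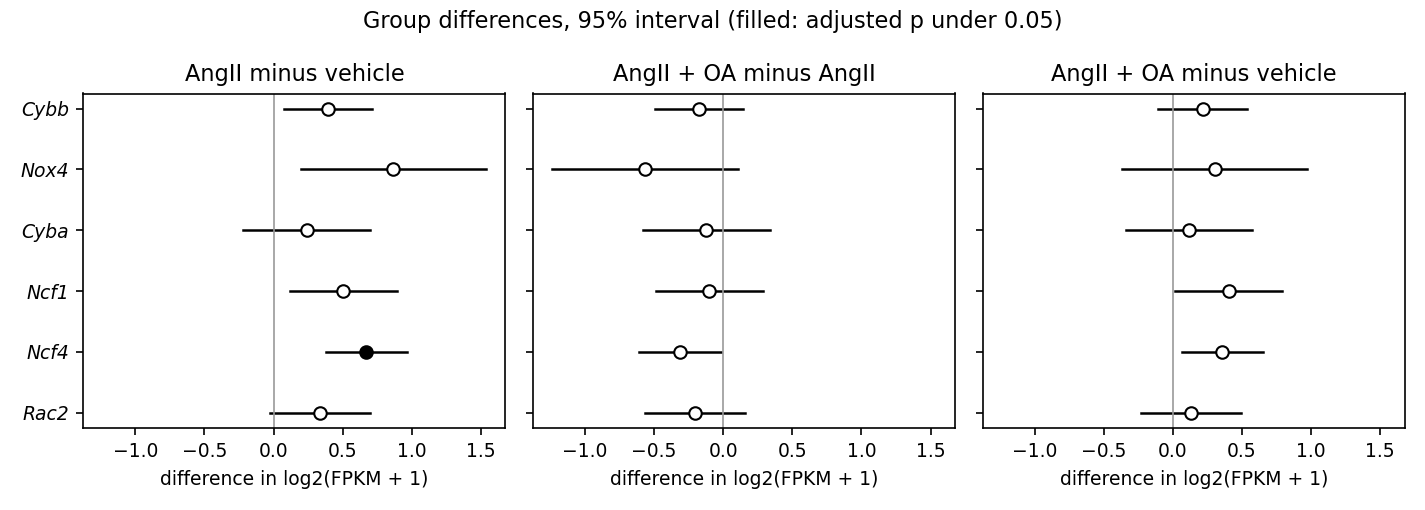
Difference in log2(FPKM + 1) between groups (horizontal axes) for the 6 genes in the 3 comparisons; points are limma estimates from 1 fit of 15 libraries, lines their 95% intervals, and a filled point has an adjusted p under 0.05. The filled point is Ncf4 in AngII minus vehicle, at 0.67.

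With oleic acid added to the same pump, the second comparison set AngII plus OA hearts against AngII hearts. All 6 subunit genes had a lower mean with oleic acid, as did 63.4% of all tested genes, and 0 of the 6 passed. By limma 0 of 13121 genes passed in this comparison (0%). At an unadjusted p under 0.05 there were 866 genes (6.6%), and 5.25% of all tested genes were lower at that level. Ncf4 was the 1 of the 6 among the latter. The groups overlapped for all 6, and did not for 1.27% of all tested genes. The median log2 difference was -0.19 for the 6 genes and -0.05 for all tested genes. The AngII libraries serve here as the reference and in the first comparison as the treated group, so the opposite signs of the 2 comparisons are not independent.

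With oleic acid Ncf4 was at 1.97, 1.99, 2.03, 2.85 and 1.88 FPKM in replicates 1 to 5. Replicate 4 was well above the other 4, which lay between 1.88 and 2.03, and all 5 were under the AngII median of 3.32. The log2 difference from AngII was -0.31 (SE 0.14, limma adjusted p = 0.737; unadjusted p = 0.0387; exact permutation p = 0.0714). Nox4 was at 1.87, 0.361, 0.931, 0.814 and 0.551 FPKM. Here replicate 1 was the high library, and every value lay under the 2 highest AngII values. Its log2 difference of -0.57 (SE 0.32, limma adjusted p = 0.748) had a 95% interval from -1.24 to 0.11. Without AngII replicate 5 the Nox4 difference was -0.27.

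Cybb was at 2.36, 1.32, 1.67, 1.98 and 1.79 FPKM with oleic acid, and its log2 difference from AngII was -0.18 (95% interval -0.50 to 0.14). Rac2 was at 2.28, 1.82, 1.39, 2.22 and 2.45 FPKM, with a difference of -0.20 (95% interval -0.57 to 0.16). Cyba was at 33.6, 27.1, 22.6, 35.8 and 37.2 FPKM, with -0.12 (95% interval -0.58 to 0.34). With 1 library left out the difference ranged from -0.28 (without AngII replicate 3) to -0.10 (without AngII replicate 5) for Cybb, from -0.32 (without AngII replicate 3) to -0.12 (without AngII plus OA replicate 3) for Rac2, and from -0.23 (without AngII replicate 2) to -0.01 (without AngII plus OA replicate 3) for Cyba. For these genes both groups covered each other over most of their range, and a change of either sign lies within each interval. Ncf1, the organizer, differed by -0.10 (95% interval -0.49 to 0.29), and by 0.02 without AngII replicate 5.

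The third comparison, AngII plus OA against vehicle, asks how hearts given both agents differed from those given saline. Its vehicle libraries are those of the first comparison, so the signs of the 2 are not independent. All 6 means were higher than in vehicle, as were 58.3% of all tested genes, with a median log2 difference of 0.26 against 0.02 for all tested genes. Limma called 0 of the 6 and 0 of 13121 genes (0%). At an unadjusted p under 0.05, 2 of the 6 were higher, Ncf1 and Ncf4, beside 2.58% of all tested genes higher and 441 genes (3.36%) in either direction.

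Among the 6 genes, Ncf1 alone had groups that did not overlap, and it did so only in AngII plus OA against vehicle. In AngII plus OA hearts it was at 2.31, 1.94, 2.19, 3.405 and 1.91 FPKM, and all 5 values lay above the highest vehicle value of 1.73. Without overlap in this direction were 0.655% of all tested genes. The means were 2.35 ± 0.612 and 1.51 ± 0.148 FPKM, a log2 difference of 0.40 (SE 0.18, unadjusted limma p = 0.0426; exact permutation p = 0.00794, the smallest that 5 against 5 can give), and the limma adjusted p was 1.0. Ncf4 differed by 0.36 (SE 0.14, unadjusted limma p = 0.02; exact permutation p = 0.0397), and 4 of the 5 vehicle values lay under its lowest value with oleic acid. Nox4 differed by 0.30 (95% interval -0.37 to 0.97), Cybb by 0.21 (-0.10 to 0.53), Rac2 by 0.13 (-0.23 to 0.50) and Cyba by 0.12 (-0.34 to 0.57). These values also hung on single libraries. Nox4 was 0.14 without AngII plus OA replicate 1, Cybb 0.33 without vehicle replicate 4, Rac2 0.04 without vehicle replicate 1 and 0.22 without vehicle replicate 2, and Cyba 0.02 without vehicle replicate 4 and 0.27 without vehicle replicate 2. Exact p-values of the subunit genes are given unadjusted. Of the 18 such tests (6 genes, 3 comparisons) 4 were under 0.05 before adjustment and 0 after it. A single test at the smallest possible p cannot pass that adjustment.

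In most hearts Cybb was the more abundant of the 2 main catalytic chains, and in 2 hearts Nox4 was. The summed level of Cybb, Nox4 and the rarer chains Nox1, Nox3, Duox1 and Duox2 was 2.42 ± 0.510 FPKM (SD, n = 5) in vehicle hearts. It was 4.71 ± 2.40 FPKM with AngII and 3.17 ± 0.878 FPKM with AngII and oleic acid. Nox4 made up 18.5%, 26.5%, 24.9%, 11.3% and 24.1% of that sum in the vehicle libraries. In AngII libraries its share was 19.3%, 56.5%, 31.4%, 26.9% and 61.4%, and in AngII plus OA libraries 41.4%, 16.6%, 30.7%, 24.02% and 20.2%. The rarer chains together made up 3.19% (AngII replicate 2) to 24.9% (vehicle replicate 5). They exceeded Nox4 in vehicle replicates 1, 4 and 5 and in AngII plus OA replicate 2. Duox1 and Duox2 averaged 0.27 and 0.13 FPKM, under the filter of 0.5, so the shares rest partly on very low values. Nox4 exceeded Cybb in AngII replicates 2 and 5 and in no other library, by 1.40 and 1.75 times. Neither the share (exact permutation p = 0.0635 for AngII against vehicle) nor, after adjustment over 9 tests of 3 such measures, the sum (exact permutation p = 0.0476; adjusted 0.286) passed. Over 9 tests, too, a single one at the smallest possible p cannot pass. Cyba outnumbered the summed catalytic chains in every library, from 4.32 times in AngII replicate 2 to 16.6 times in vehicle replicate 2.

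**Figure D3:**
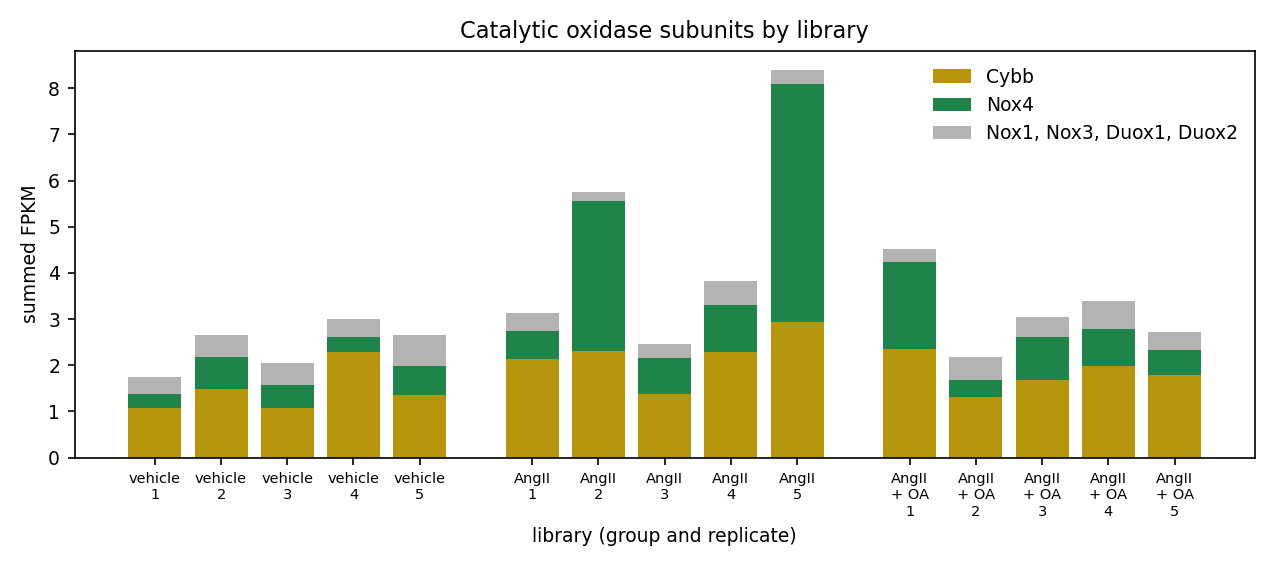
Summed FPKM of catalytic oxidase chains (vertical axis) in each of the 15 libraries, stacked as Cybb, Nox4 and the sum of Nox1, Nox3, Duox1 and Duox2. Nox4 is the largest part in AngII replicates 2 and 5, at 56.5% and 61.4% of the sum.

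Cybb, Ncf1, Ncf4 and Rac2 are known from myeloid cells, though not from these alone, so the levels of cell type markers are given beside them. Of 15 macrophage markers, which include none of the 6 genes but share Fcgr1 with a list of oxidase activators, all 15 had a higher mean in AngII than in vehicle hearts (65.7% of all tested genes did) and 5 rose (1.27% of all tested genes did): the complement chains C1qa, C1qb and C1qc, the scavenger receptor Cd163 and the pore protein Mpeg1. Their summed level was 298 to 424 FPKM in vehicle, 483 to 724 in AngII and 362 to 615 in AngII plus OA libraries, and 0 of the 15 was at 0 throughout. The mean log2 level of the markers was 0.54 higher in AngII than in vehicle hearts, with every AngII library above every vehicle library (exact permutation p = 0.00794). For AngII plus OA it was 0.28 above vehicle (exact permutation p = 0.0397) and 0.26 under AngII (exact permutation p = 0.103).

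The level of each of the 6 genes was also measured relative to that macrophage mean within each library. In AngII against vehicle the relative level differed by 0.14 for Ncf4, -0.03 for Ncf1, -0.14 for Cybb, -0.20 for Rac2, -0.30 for Cyba and 0.33 for Nox4 on the log2 scale. The exact permutation p ran from 0.151 to 0.937 over the 18 tests of 6 genes and 3 comparisons, and 0 of 18 was under 0.05 before any adjustment. The relative level of Ncf4 varied least in AngII hearts (-1.86 ± 0.0671) and that of Nox4 most (-2.37 ± 0.797; SD, n = 5 each). The smallest p of 5 against 5 is 0.00794, so a difference could have passed unadjusted, but these values do not show that the genes and the markers changed alike.

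**Figure D4:**
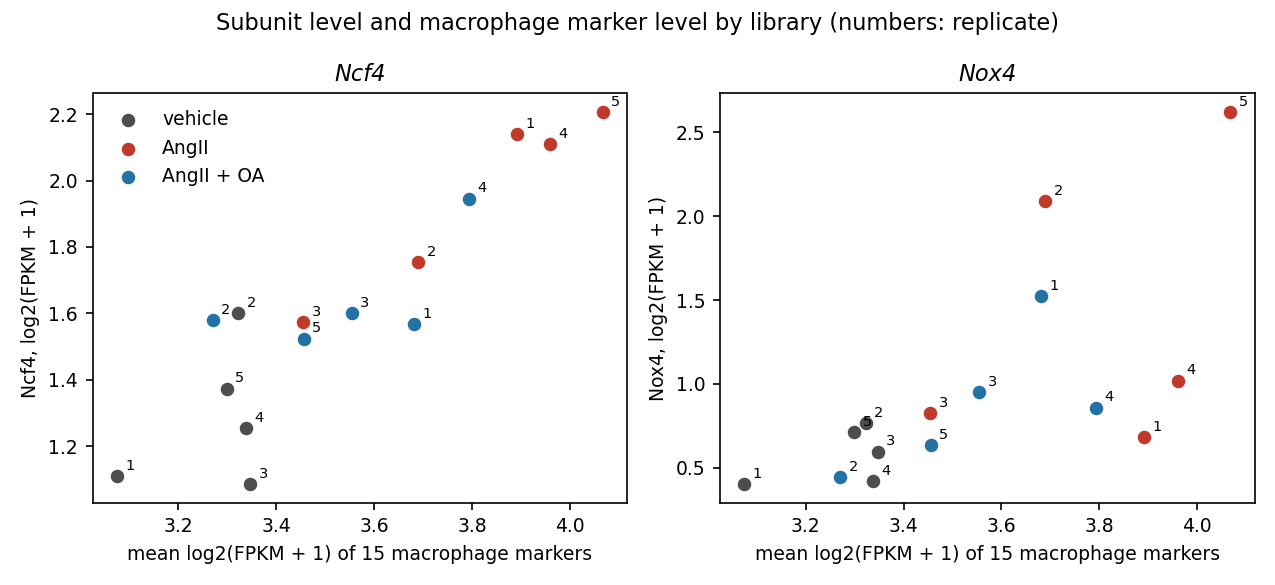
Log2(FPKM + 1) of Ncf4 (left) and Nox4 (right) against the mean log2(FPKM + 1) of 15 macrophage markers (horizontal axes); each numbered point is 1 library, coloured by group. The 3 AngII libraries with the highest marker means are the 3 highest for Ncf4, while Nox4 is high in AngII replicates 5 and 2 and at 0.603 and 1.03 FPKM in AngII replicates 1 and 4.

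Markers of other cell types are read against the same 65.7% of all tested genes with a higher mean and 1.27% called higher. Of 9 fibroblast markers 5 rose in AngII hearts (Col1a1, Col1a2, Col3a1, Postn and Pi16), and all 9 means were higher. The summed fibroblast level was highest in AngII replicates 5 (1307 FPKM) and 2 (1276 FPKM) followed by AngII plus OA replicate 1 (1086 FPKM). These are also the 3 libraries with the most Nox4, in the same order. Dcn alone gave 670.4, 1001 and 797.5 FPKM of these 3 sums. The single markers did not all follow the order. In AngII replicate 2, Col1a1 (17.1 FPKM), Lum (51.3) and Pi16 (47.7) were the lowest of the AngII group. Dcn and Pdgfra (7.97 FPKM) were the highest there, and the other markers lay between. Common leukocyte genes had all 5 means higher, and 1 of the 5 rose (Laptm5). Of 10 neutrophil markers 4 could be tested and 0 passed. The genes Ly6g, Mpo and Elane never exceeded 0.431 FPKM and were at 0 in 10, 9 and 12 libraries, and Camp and Ngp never exceeded 0.408 FPKM. The other 5 were above 0 in all 15 libraries: Cxcr2 reached 0.766 FPKM, Csf3r 2.68, Retnlg 14.2, S100a8 21.8 and S100a9 67.8. The summed neutrophil level was 97.8 FPKM in AngII plus OA replicate 5 and 88.0 FPKM in AngII replicate 2, against at most 28.8 FPKM elsewhere. Of the remaining lists, T cell (1 of 6 tested), B cell (3 of 5), endothelial (8 of 8), smooth muscle (4 of 5), ventricular (8 of 8), atrial (5 of 5), adipocyte (3 of 5) and mesothelial markers (4 of 4) had 0 members called in any comparison. The part of these cell types in the subunit values was not tested.

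How far the 6 genes varied together within groups was measured over the 15 libraries. With the group means subtracted, Pearson's r over 15 libraries was highest for Cyba with Ncf4 (r = 0.76, permutation p = 0.0054, adjusted p = 0.0350; Spearman's rho 0.63, permutation p = 0.0281, adjusted 0.0842). Ncf4 with Rac2 had r = 0.74 and rho = 0.72, Cyba with Rac2 0.72 and 0.65, Ncf1 with Ncf4 0.71 and 0.77, and Cybb with Rac2 0.69 and 0.63. These 5 of 15 pairs had an adjusted permutation p of 0.0350 by Pearson's r and of 0.0842 by Spearman's rho, so they passed by the first and not by the second. Leaving out the 2 libraries farthest from the median on the x axis, r was 0.77, 0.72, 0.63, 0.72 and 0.57 in the same order. Nox4 had r between 0.06 and 0.20 with Cyba, Ncf1, Ncf4 and Rac2 and 0.55 with Cybb (adjusted p = 0.0837). Libraries share depth, tissue make-up and the mitochondrial share of their totals, and 0 of the 15 pairs passed when mitochondrially encoded genes were left out of the totals or without AngII replicate 2.

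The genes whose levels were most like each subunit over all 15 libraries, group differences included, were found among 11302 other genes with a mean of at least 1 FPKM. For Ncf4 they were the complement chain C1qa (r = 0.96), the lysosomal protease Ctsz (0.95) and C1qc (0.94). For Nox4 they were the lysyl oxidase relative Loxl3 (r = 0.93), the secreted fibroblast protein Cthrc1 (0.92) and Angptl7 (0.92). Spearman's rho of these with Nox4 was lower, at 0.85, 0.79 and 0.86. Cybb was most like the interferon-inducible genes Epsti1 (0.94) and Ifi209 (0.90) and the class II antigen-presenting chain H2-Aa (0.91). For Ncf1 the 3 were Cd34 (0.93), Endod1 (0.92) and the blood cell actin regulator Was (0.92), for Rac2 H2-DMa (0.88), Evi2a (0.87) and the immunoproteasome subunit Psmb9 (0.86), and for Cyba Mydgf (0.93), the actin-binding peptide Tmsb4x (0.93) and Abhd14a (0.93). As the highest of many values, these r are a description.

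Of 16 further subunits and partners 7 passed the filter. Beside 1.27% of all tested genes called higher in AngII hearts, 1 of the 7 rose. It was P4hb, protein disulfide isomerase, which rose from 75.2 ± 5.57 to 100.4 ± 6.27 FPKM (log2 change 0.41, limma adjusted p = 0.0305). The ubiquitous GTPase Rac1 was at 27.3 ± 4.24 against 22.4 ± 5.99 FPKM (adjusted p = 0.376). Nox1, Nox3 and Noxa1 never exceeded 0.0494 FPKM.

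Among 23 genes that activate the phagocyte oxidase, 20 were tested, all 20 had a higher mean in AngII hearts and 3 rose, beside 65.7% and 1.27% of all tested genes. Among them were the Fc receptor Fcgr3 (from 14.9 ± 2.11 to 29.0 ± 6.56 FPKM) and the integrin chain Itgam (from 0.946 ± 0.240 to 2.20 ± 0.836). In the list of 20 genes tied to superoxide and peroxide removal, 12 means were higher, a share below the 65.7% of all tested genes. The median log2 change was 0.07, as over all tested genes. There 2 genes rose, the extracellular superoxide dismutase Sod3 (log2 change 0.75) and the uncoupling protein Ucp2 (0.85). Ucp2 is a mitochondrial carrier and does not itself remove superoxide or peroxide. A further list of 15 genes held angiotensin receptors, transcription factors and a secreted growth factor. Of these 15 genes 12 were tested and, beside the same 1.27% of all tested genes, 1 rose. It was Spi1, which encodes PU.1, from 2.26 ± 0.330 to 4.003 ± 0.675 FPKM (log2 change 0.61, limma adjusted p = 0.0165). The most abundant of that list, Nfe2l2 and Rela, had log2 changes of -0.07 and 0.13 and did not pass. The receptor Agtr1a was at 5.69 ± 1.94 against 7.91 ± 1.25 FPKM (adjusted p = 0.209) and Agtr1b was listed at 0 in all 15 libraries. In the 2 comparisons with oleic acid 0 members of these 4 lists were called, as were 0 of all 13121 tested genes.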

How the data were processed

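The deposited table gives FPKM computed by the authors for 36653 Ensembl identifiers in 15 libraries, and every column matched a sample title. HISAT2 2.0.4 and the build mm8 are listed per the submitters' processing notes. Which program counted fragments, on which annotation and with what strand setting, is not given in the sources used here. Symbols came from GENCODE M21 (36464 identifiers matched). With its exon lengths, 79.1% of the 28996 genes above 0 gave whole reads in all libraries (tolerance 0.02), which gave the library totals. For Ncf4 and Rac2 the length came from the steps themselves.

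For each gene, log2(FPKM + 1) was modelled by limma (version 3.58.1, R 4.3.3; eBayes with trend) in 1 fit of all 15 libraries with group as the only term. The 13121 genes averaging 0.5 FPKM or more entered it. P-values were Benjamini-Hochberg adjusted per comparison and called under 0.05. Such log2 changes understate those of low genes. Single values were compared by exact permutation tests, and correlations by 100000 permutations within groups. All tests were 2-sided. The fit was checked on simulated data.

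The labels call the samples biological replicates. They do not say that replicate numbers pair the samples, and the main fit did not pair them. The subunit genes and the lists were chosen with earlier results of these data known. Named from each list were its called genes and, with under 2 called, the 2 most abundant; the 3 most alike genes had the highest r. Some genes of the lists are not reported here by name. Agtr1a, Agtr1b, Myl2, Myl3, Nox1, Nox3, Noxa1 and the neutrophil genes were chosen after their values were seen. The alternatives were another pseudocount, other filters, 3 scalings, a fit of the 10 libraries compared, a replicate block and leaving out each library.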

Additional observations from a re-analysis of the deposited data

Results flagged for a closer look

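In AngII plus OA replicate 4, both cytosolic subunits Ncf1 (3.405 FPKM, next highest 2.31) and Ncf4 (2.85 FPKM, next highest 2.03) stood far above the other 4 libraries of the group, with a gap larger than Dixon's 95% critical value allows. The macrophage markers were also highest on average in that library of its group (mean log2 level 3.79). These were 2 of 18 combinations of gene and group examined, and chance alone flags about 1 in 20 of them. The part of any cell type in these values was not tested.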

How the results depend on the processing

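In AngII against vehicle, 1 of the 6 subunit genes was called. The count was 0 with no filter on low values, 0 with only the 10 libraries compared and 0 with a replicate block, and 0 to 2 with 1 library left out. Ncf4 then had an adjusted p of 0.0723, 0.0880 and 0.0552. The count of all genes, 197, became 72 with no filter, 109 after quantile normalization, 114 with FPKM rescaled without mitochondrially encoded genes, 70 with only the 10 libraries compared, 38 with the replicate block and 49 to 425 with 1 library left out. Called genes split 166 higher and 31 lower, but 69 and 40 after quantile normalization, 103 and 57 after a shift to 1 median and 77 and 37 with FPKM rescaled. The 6 genes stayed higher under each of these scalings, with a median of 0.36 to 0.39. In AngII plus OA against AngII, leaving out 1 library gave 0 to 1 called genes (1 without AngII replicate 3). Ncf1 there ranged from -0.28 to 0.020, the latter without AngII replicate 5. Among the 6 subunit genes the replicate block changed no other call; the calls of other named genes were not followed under it. Same-numbered samples had correlations of -0.35 to 0.43.

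Some small differences relative to the macrophage mean, 0 of 18 of them called in any setting, changed sign. A call here meant an exact permutation p adjusted over the 18 tests. A single test at its smallest possible p cannot pass that, so the absence of calls says little. With Csf1r alone as the reference, Cybb and Ncf1 had 0.011 and 0.12 in AngII against vehicle, and Cybb and Rac2 -0.041 and -0.067 in AngII plus OA against AngII. With a pseudocount of 0.1, Ncf1 had 0.083 in the first comparison and Cybb 0.0034 in the third. With 1 library left out, Ncf1 ranged from -0.089 to 0.12 in the first (0.019 without vehicle replicate 1). In the second Ncf4 ranged from -0.11 to 0.00021 and Rac2 from -0.015 to 0.14, and in the third Cybb from -0.13 to 0.035 and Nox4 from -0.10 to 0.092 (-0.029 without vehicle replicate 4). Of 15 correlated pairs, 5 passed, but 0 without AngII replicate 2 and 0 with FPKM rescaled, where r was 0.64 to 0.69 for the 5. The causes were not tested. With a mean of at least 5 FPKM only Cyba was left, so the other 5 could not be fitted. The few reads of Ncf4, Rac2 and Ncf1 limit their precision.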
